A study of Mus musculus with 8 samples.

Results

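The sarcomere and Z-disc genes are 37 genes that encode the filaments, cross-links and anchoring proteins of the contractile unit of heart muscle. They were chosen by name, from their known place in that unit, with earlier results of these data known. All 37 were found by gene symbol among the 45706 genes of the deposited table. RNA sequencing measured transcript levels in 8 whole hearts of 8-week-old male mice, each heart as the labels describe it a separate sample. The conditional knockout group (cKO, n = 4, genotype Elmsan1 fl/fl;aMHC-Cre+/-) carried floxed Elmsan1 alleles and a Cre recombinase transgene driven by the cardiomyocyte promoter of Myh6 (αMHC), so that the other cells of the heart keep their floxed alleles. The floxed controls (n = 2, Elmsan1 fl/fl) had no Cre, and the Cre controls (n = 2, aMHC-Cre+/-) had no floxed alleles. Elmsan1 encodes a subunit of a histone deacetylase complex, and the comparison asks how transcripts differ in hearts whose cardiomyocytes lose it.

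A sarcomere runs from Z-disc to Z-disc. Thin filaments of actin, tropomyosin and troponin are anchored in the Z-disc by alpha-actinin and slide along thick filaments of myosin, which titin spans and the myomesins join at the M-band. Z-disc and LIM-domain proteins tie this lattice to desmin filaments and to the cell membrane, and mutations in many of these genes are known causes of inherited cardiomyopathy.

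The libraries held 17509564 to 25833259 estimated counts, and the smallest count of any member in any heart was 58. Levels are given in CPM, counts rescaled to a common library total with TMM factors (trimmed means of log ratios). Elmsan1 stood at 12.0 to 15.5 CPM in the cKO hearts and at 25.3 to 28.6 CPM in the 4 controls (log2 fold change -0.89, SE 0.11, Benjamini-Hochberg adjusted p = 8.94e-05 by edgeR's quasi-likelihood test). The labels do not give the deleted exons, so the count over the whole gene checks the labels only in part. A list of 10 genes that define cardiomyocytes, which shares Myl2, Tnni3, Tnnt2 and Actc1 with the members, had 5 genes higher and 2 lower and summed to 60719 to 68772 CPM in cKO and 60547 to 64956 CPM in controls. Without these members 3 of its 6 genes were higher and 2 lower, and the sums were 37056 to 43412 and 39528 to 43474 CPM. Of all tested genes 25.6% rose and 26.5% fell. Among 14 skeletal muscle genes, 9 were under 1 CPM in every heart, with Myh4 and Pax7 at 0 throughout. Of the 7 that were tested 2 (Tnnt3 and Pvalb) rose, near the share of all tested genes. The list summed to 15.2 to 19.8 CPM in cKO and 11.5 to 19.9 CPM in controls. On the first principal component of all tested genes the cKO hearts lay between -67.1 and -18.1 and the controls between 36.4 and 49.1, with cKO replicate 4 the farthest from the controls and cKO replicate 1 the nearest.

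A set of 6 promoters is shown for members of each direction because it holds the motifs best known from muscle promoters, and the values of these genes follow further on. Each is the 250 bases before the RefSeq start (GRCm38.p6), with matches to the CArG box, the MEF2 site and the hexamer CATTCC (the letters of the TEAD site) in capitals, on either strand. Myl3 (chr9:110763428-110763677, plus strand) and Pdlim3 (chr8:45885237-45885486, plus strand) rose in cKO hearts, Ttn (chr2:76982548-76982797, minus strand), Mybpc3 (chr2:91117894-91118143, plus strand) and Myom1 (chr17:71019307-71019556, plus strand) fell, and Actc1 (chr2:114052876-114053125, minus strand) was not called.
Myl3: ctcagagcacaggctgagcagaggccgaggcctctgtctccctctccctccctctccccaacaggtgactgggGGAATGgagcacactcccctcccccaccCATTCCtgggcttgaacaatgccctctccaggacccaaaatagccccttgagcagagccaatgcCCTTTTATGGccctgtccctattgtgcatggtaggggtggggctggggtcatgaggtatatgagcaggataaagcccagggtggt
Pdlim3: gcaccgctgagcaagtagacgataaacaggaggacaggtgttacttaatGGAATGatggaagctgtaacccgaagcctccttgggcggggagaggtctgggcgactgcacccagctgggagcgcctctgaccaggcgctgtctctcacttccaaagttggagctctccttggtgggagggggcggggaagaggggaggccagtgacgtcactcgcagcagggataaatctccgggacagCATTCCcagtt
Ttn: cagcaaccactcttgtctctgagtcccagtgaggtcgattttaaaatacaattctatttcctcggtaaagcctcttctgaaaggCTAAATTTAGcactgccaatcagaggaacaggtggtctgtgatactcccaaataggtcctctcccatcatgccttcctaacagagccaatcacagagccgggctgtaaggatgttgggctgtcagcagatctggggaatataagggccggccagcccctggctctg
Mybpc3: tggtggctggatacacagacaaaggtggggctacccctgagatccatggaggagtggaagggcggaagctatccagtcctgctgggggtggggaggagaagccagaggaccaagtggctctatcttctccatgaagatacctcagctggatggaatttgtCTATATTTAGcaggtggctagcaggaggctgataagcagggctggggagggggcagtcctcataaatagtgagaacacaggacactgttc
Myom1: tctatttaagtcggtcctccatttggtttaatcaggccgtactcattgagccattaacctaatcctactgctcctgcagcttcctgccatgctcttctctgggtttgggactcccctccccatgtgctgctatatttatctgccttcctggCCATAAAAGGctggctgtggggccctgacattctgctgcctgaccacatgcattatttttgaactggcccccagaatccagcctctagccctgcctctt
Actc1: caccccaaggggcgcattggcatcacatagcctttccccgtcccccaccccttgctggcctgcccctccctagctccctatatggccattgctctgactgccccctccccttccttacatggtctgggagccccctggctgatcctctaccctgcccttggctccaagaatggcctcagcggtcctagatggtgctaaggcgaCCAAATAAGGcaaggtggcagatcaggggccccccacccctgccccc

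The RefSeq table held promoters of 32 of the 37 members, 46 promoters in all. Xirp1, Cryab, Myom2, Myot and Tcap were not among them. The CArG box was found in 17.4% of the 46 promoters, in Fhl2, Nebl, Actc1, Myl3, Ldb3 and Myom1, and in 1.47% of the 32851 mouse promoters of the same length. The MEF2 site was found in 17.4% of the members' promoters and 2.92% of all promoters, and CATTCC in 23.9% and 12.6%. By direction, the CArG box was in 6 of 27 promoters of members that fell, 1 of 7 of members that rose and 1 of 12 of members not called. Some members have several promoters, and those of Ldb3 overlap and share the same match. Counted by gene, the CArG box was in 4 of 17, 1 of 6 and 1 of 9. The MEF2 site was in 4 of 27, 0 of 7 and 4 of 12 promoters, and in 4 of 17, 0 of 6 and 3 of 9 genes. CATTCC was in 6 of 27, 3 of 7 and 2 of 12 promoters, and in 6 of 17, 3 of 6 and 2 of 9 genes. No matches of different motifs overlapped. These matches describe letters in a fixed window and are not shown to be bound.

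In cKO hearts 19 of the 37 members fell and 8 rose against the average of both control groups, and 10 did not pass the test (edgeR's quasi-likelihood test, adjusted p under 0.05 over the 15289 genes tested). These 27 are 73% of the members, beside 52.1% of all tested genes, of which 25.6% rose and 26.5% fell. The members were chosen with earlier results of these data known, so these shares are a description. The median log2 fold change of the members was -0.29, beside 0.04 over all tested genes. The largest falls were those of Palld, Lmod2, Nebl, Xirp1 and Myom2, and the largest rises those of Tcap and Pdlim3. All 37 members passed the filter on low counts. With whole-heart RNA, fewer cardiomyocytes and less RNA per cardiomyocyte cannot be told apart.

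All 4 cKO hearts lay below all 4 controls for 19 members and above them for 9, and the groups overlapped for the other 9. Over all tested genes such separation was seen for 49.3%, with 25.9% below and 23.4% above. Leaving out cKO replicate 4, the lowest of the cKO hearts in 23 of the 37 members, gave 8 members higher and 18 lower. Of all tested genes it gave 3553 higher and 3870 lower. The split of calls moved with the scaling. Under upper-quartile scaling and library size alone the median of all tested genes shifted to 0.16 and 0.17. Each gave 11 members higher and 15 lower. Of all tested genes, 4873 were higher and 3351 lower with the former, and 4753 and 2981 with the latter. With TMM scaling these were 3909 and 4050. With no filter the median of all genes was 0.11, and 7 members were higher and 19 lower, beside 3655 and 4103 of all genes. A per-library correction for length and GC content of transcripts, called the length and GC offset here, gave 3 members higher and 19 lower. Under that offset 45.9% of all tested genes were called, 22.6% higher and 23.3% lower. Summed over the 37 members, the level was 56965 to 60778 CPM in cKO (5.70% to 6.08% of the scaled total) and 53510 to 61263 CPM in controls (5.35% to 6.13%), so the sums overlapped.

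**Figure D1:**
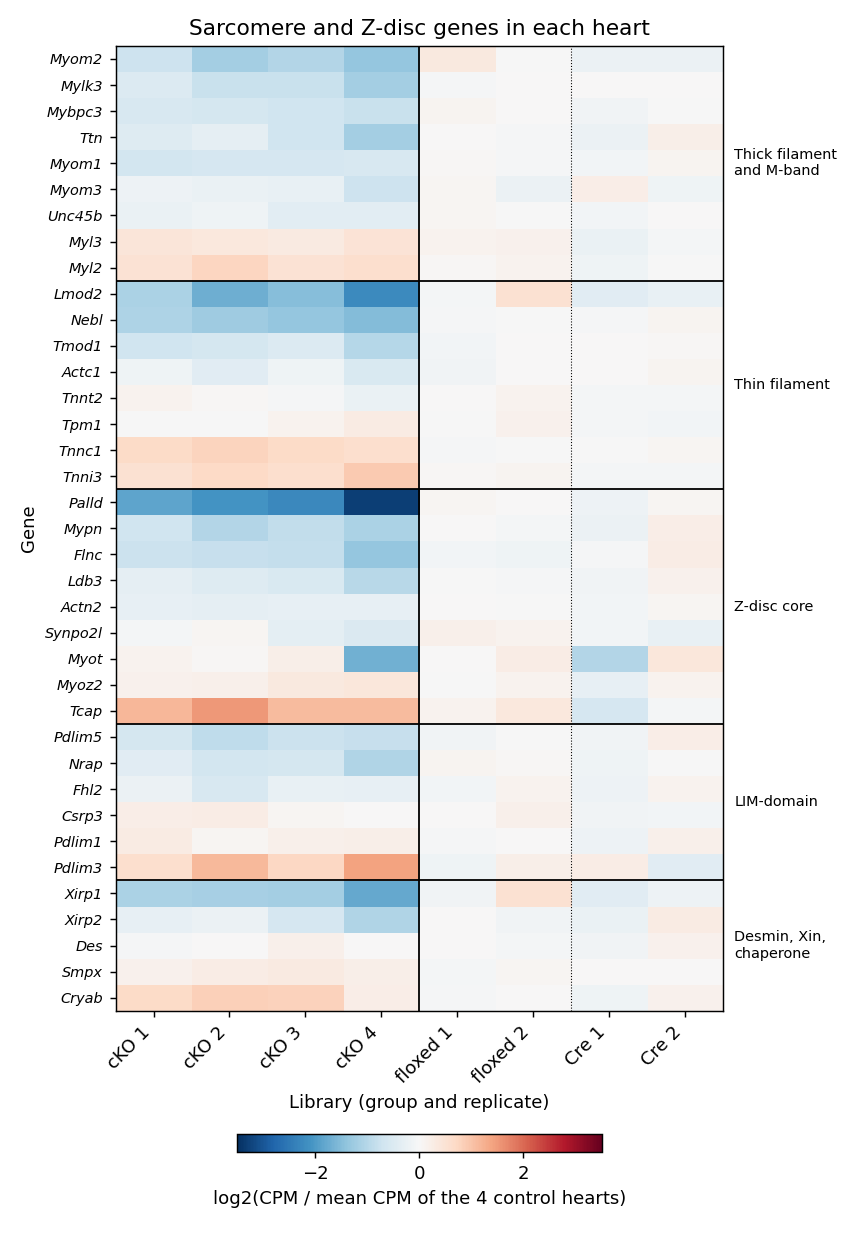
Heat map of the 37 genes (vertical axis, by role group) in each of the 8 hearts (horizontal axis), coloured by the log2 ratio of the CPM to the mean CPM of the 4 control hearts. Palld, Lmod2, Nebl and Xirp1 are blue (lower) and Tcap and Pdlim3 red (higher) in each of the 4 cKO hearts, and cKO 4 is the lowest cKO heart in 23 of 37 genes.

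Among the 9 thick filament and M-band genes 6 fell, 2 rose and 1 was not called. Myom2 (ENSMUSG00000031461, chr8:15057653-15133541, plus strand) encodes myomesin 2, a cross-link of the thick filaments at the M-band. The level of Myom2 was 744, 548, 604 and 482 CPM in the 4 cKO hearts, 1579 and 1234 CPM in the floxed hearts, and 1068 and 1079 CPM in the Cre hearts. Every cKO heart was below every control, and floxed replicate 1 was the highest heart. Myom2 was 2.07-fold lower in cKO hearts, at 594 ± 112 CPM (SD, n = 4) against 1240.1 ± 238 CPM over the 4 controls (log2 fold change -1.05, SE 0.14, Benjamini-Hochberg adjusted p = 0.000137 by edgeR's quasi-likelihood test). Mylk3 (ENSMUSG00000031698, chr8:85324303-85386345, minus strand) encodes the cardiac myosin light chain kinase, which phosphorylates the light chain that Myl2 encodes. Mylk3 stood at 407, 332, 336 and 249 CPM in cKO replicates 1 to 4, 559 and 581 CPM in floxed replicates 1 and 2, and 575 and 576 CPM in Cre replicates 1 and 2. The controls lay within a narrow range above all cKO hearts, of which replicate 4 was lowest and replicate 1 highest. Mylk3 was 1.73-fold lower in cKO hearts, at 331 ± 64.6 CPM (SD, n = 4) against 573 ± 9.17 CPM over the 4 controls (log2 fold change -0.79, SE 0.13, Benjamini-Hochberg adjusted p = 0.000588 by edgeR's quasi-likelihood test). Mybpc3 (ENSMUSG00000002100, chr2:91118144-91136516, plus strand) encodes cardiac myosin-binding protein C, a regulator of cross-bridge cycling. The level of Mybpc3 was 2315, 2259.7, 2106 and 1991 CPM in the 4 cKO hearts, 3696 and 3489 CPM in the floxed hearts, and 3177 and 3371 CPM in the Cre hearts. The groups did not overlap. Mybpc3 was 1.58-fold lower in cKO hearts, at 2168 ± 147 CPM (SD, n = 4) against 3433 ± 217 CPM over the 4 controls (log2 fold change -0.66, SE 0.10, Benjamini-Hochberg adjusted p = 0.000222 by edgeR's quasi-likelihood test).

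Ttn, which encodes titin, the spring that runs from Z-disc to M-band, fell (log2 fold change -0.63), with 1859 CPM in cKO replicate 4 and 2585 to 3373 CPM in the other cKO hearts against 3667 to 4872 CPM in controls. Myom1, for myomesin 1, fell by 0.60 on the log2 scale. Its 4 cKO hearts spanned only 765 to 803 CPM, below the 1112 to 1266 CPM of the controls. On the opposite strand Myom1 overlaps Myl12a, whose mean level was 42.4% of that of Myom1, and the strand setting of the counting is not given, so the value of Myom1 is uncertain. Myom3, the myomesin with the lowest level of all members per kilobase of transcript (0.655 CPM per kb in controls), had a log2 fold change of -0.34 and was not called. Unc45b, a chaperone for myosin folding, fell by 0.27 on the log2 scale, a call that was lost without cKO replicate 3 (-0.24), floxed replicate 1 (-0.25), floxed replicate 2 (-0.29) or Cre replicate 2 (-0.24), and under upper-quartile scaling (-0.16) and library size alone (-0.15). The regulatory and essential ventricular light chains, Myl2 and Myl3, rose by 0.60 and 0.41 on the log2 scale. Myl2 stood at 6813 to 8070.2 CPM in cKO and 4291 to 5215 CPM in controls, and Myl3 at 5346 to 5969.6 CPM and 3608 to 4737 CPM. With the length and GC offset neither was called (0.08 for Myl2, -0.02 for Myl3).

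Of the 8 thin filament genes 3 fell, 2 rose and 3 were not called. Lmod2 (ENSMUSG00000029683, chr6:24597762-24605414, plus strand) encodes leiomodin 2, which elongates thin filaments at their pointed ends. Lmod2 stood at 293, 194, 228 and 135 CPM in cKO replicates 1 to 4, 613 and 918 CPM in floxed replicates 1 and 2, and 488 and 530.4 CPM in Cre replicates 1 and 2. All cKO hearts were below all controls, with floxed replicate 2 far above the other controls and cKO replicate 4 lowest. Lmod2 was 2.94-fold lower in cKO hearts, at 213 ± 66.1 CPM (SD, n = 4) against 637 ± 194 CPM over the 4 controls (log2 fold change -1.55, SE 0.23, Benjamini-Hochberg adjusted p = 0.00065 by edgeR's quasi-likelihood test). Nebl (ENSMUSG00000053702, chr2:17343909-17731464, minus strand) encodes nebulette, the cardiac relative of nebulin that binds actin near the Z-disc. The level of Nebl was 138, 125, 116 and 102 CPM in the 4 cKO hearts, 286 and 289 CPM in the floxed hearts, and 286 and 314 CPM in the Cre hearts. Both control groups lay close together, more than 2-fold above each cKO heart. Nebl was 2.44-fold lower in cKO hearts, at 120.1 ± 14.9 CPM (SD, n = 4) against 294 ± 13.6 CPM over the 4 controls (log2 fold change -1.29, SE 0.10, Benjamini-Hochberg adjusted p = 1.77e-05 by edgeR's quasi-likelihood test). Tnni3 (ENSMUSG00000035458, chr7:4518305-4524229, minus strand) encodes cardiac troponin I, the inhibitory subunit of troponin. Tnni3 stood at 4504, 5096, 4659 and 5883 CPM in cKO replicates 1 to 4, 3221 and 3342 CPM in floxed replicates 1 and 2, and 2972 and 2952 CPM in Cre replicates 1 and 2. All cKO hearts were above all controls, and replicate 4 was highest. Tnni3 was 1.62-fold higher in cKO hearts, at 5035 ± 618 CPM (SD, n = 4) against 3122 ± 191 CPM over the 4 controls (log2 fold change 0.69, SE 0.11, Benjamini-Hochberg adjusted p = 0.000399 by edgeR's quasi-likelihood test). With the length and GC offset its log2 fold change was -0.04 and was not called.

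Tnnc1, the calcium-binding subunit of troponin, rose by 0.68 on the log2 scale, from 1283 to 1368 CPM in controls to 1981 to 2263 CPM in cKO hearts, and with the offset stood at -0.04 with no call. It overlaps Nisch on the opposite strand, which had 13.0% of its level. Tnnt2, the tropomyosin-binding subunit, had a log2 fold change of -0.02, and its groups overlapped (5046 to 6408 CPM in cKO, 5581 to 6433 CPM in controls). The 3 troponin subunits of the heart thus had unequal fold changes in this scaling, and log2 values of 0.03 for Tnnt2, -0.04 for Tnni3 and -0.04 for Tnnc1 with the offset. Tmod1, for the pointed-end cap tropomodulin 1, fell by 0.69 on the log2 scale. It overlaps Tstd2, which had 6.08% of its level. Actc1, cardiac actin, was the member with the highest level per kilobase in controls (5496 CPM per kb). Its log2 fold change of -0.29 missed the threshold (Benjamini-Hochberg adjusted p = 0.0556 by edgeR's quasi-likelihood test), although all cKO hearts lay below all controls. Over the alternatives its adjusted p ranged from 0.00277 to 0.301, and it was called lower without cKO replicate 1 (-0.36), with the offset (-0.59), with no filter, in the fit with both control groups pooled, and by voom and DESeq2. Tpm1, for alpha-tropomyosin, had a log2 fold change of 0.10 and was not called.

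**Figure D2:**
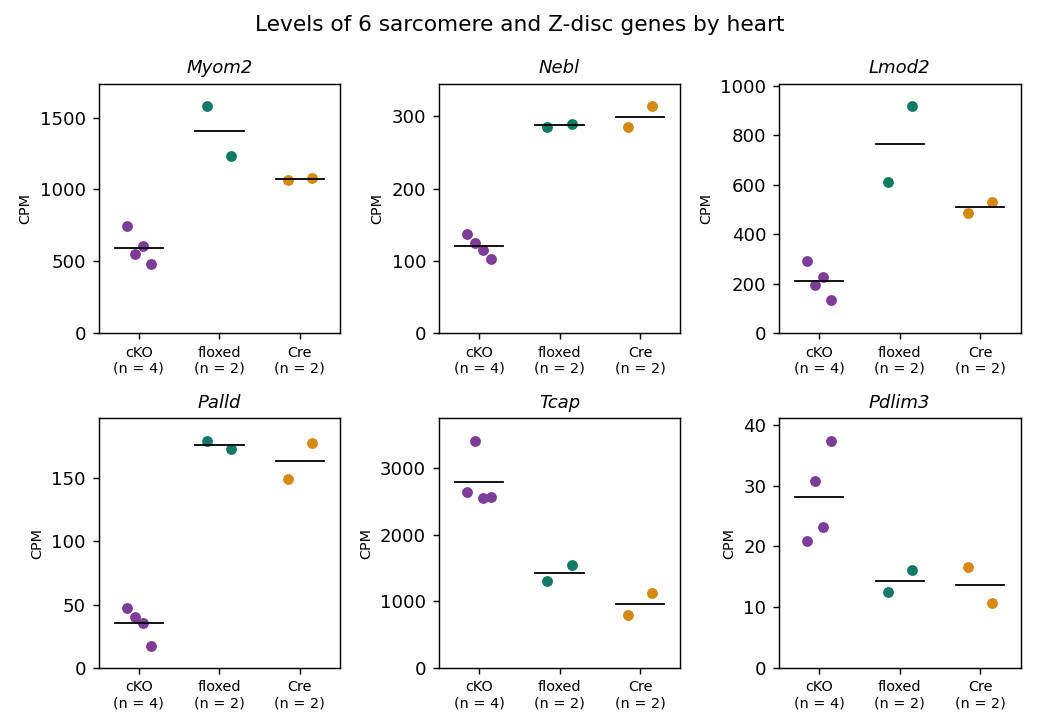
Levels in CPM (vertical axes, from 0) of Myom2, Nebl, Lmod2, Palld, Tcap and Pdlim3 in the cKO, floxed and Cre hearts (horizontal axes). Each point is a heart and each bar a group mean. In all 6 panels the cKO points lie on 1 side of all control points.

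Of the 9 Z-disc core genes 5 fell, 1 rose and 3 were not called. Palld (ENSMUSG00000058056, chr8:61511433-61902690, minus strand) encodes palladin, an actin-binding scaffold with immunoglobulin domains, and had the largest fold change of all members. The level of Palld was 47.2, 40.2, 35.7 and 17.3 CPM in the 4 cKO hearts, 179 and 173 CPM in the floxed hearts, and 149.7 and 178 CPM in the Cre hearts. Each cKO heart was more than 3-fold below the lowest control, and replicate 4 was lower than the other cKO hearts. Palld was 4.85-fold lower in cKO hearts, at 35.1 ± 12.8 CPM (SD, n = 4) against 170.1 ± 13.8 CPM over the 4 controls (log2 fold change -2.28, SE 0.29, Benjamini-Hochberg adjusted p = 0.000425 by edgeR's quasi-likelihood test). Tcap (ENSMUSG00000007877, chr11:98383811-98384953, plus strand) encodes telethonin, which caps the ends of titin in the Z-disc. Tcap stood at 2644, 3412, 2554 and 2572 CPM in cKO replicates 1 to 4, 1299 and 1543 CPM in floxed replicates 1 and 2, and 798 and 1131 CPM in Cre replicates 1 and 2. The groups did not overlap, cKO replicate 2 stood above the other cKO hearts, and both Cre hearts were below both floxed hearts. Tcap was 2.39-fold higher in cKO hearts, at 2795 ± 413 CPM (SD, n = 4) against 1192 ± 313 CPM over the 4 controls (log2 fold change 1.26, SE 0.14, Benjamini-Hochberg adjusted p = 6.18e-05 by edgeR's quasi-likelihood test). With the length and GC offset the log2 fold change was 0.38 and was not called (adjusted p = 0.0666 by the same test, with a range of 3.87e-17 to 0.0666 over the alternatives). Mypn (ENSMUSG00000020067, chr10:63115795-63203952, minus strand) encodes myopalladin, a relative of palladin that binds nebulette and alpha-actinin. The level of Mypn was 80.8, 65.3, 72.5 and 61.0 CPM in the 4 cKO hearts, 134 and 126 CPM in the floxed hearts, and 114 and 154 CPM in the Cre hearts. No cKO heart reached the lowest control. Mypn was 1.89-fold lower in cKO hearts, at 69.9 ± 8.66 CPM (SD, n = 4) against 132 ± 16.9 CPM over the 4 controls (log2 fold change -0.92, SE 0.12, Benjamini-Hochberg adjusted p = 0.000124 by edgeR's quasi-likelihood test).

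Flnc, for filamin C, an actin cross-linker, fell by 0.91 on the log2 scale, from 307 to 415 CPM in controls to 135 to 205 CPM in cKO hearts. Ldb3, for the PDZ and LIM protein also called Cypher, fell by 0.55 on the log2 scale. Actn2, for alpha-actinin 2, the main actin anchor of the Z-disc, fell by only 0.29 on the log2 scale, with cKO hearts at 1233 to 1273 CPM and controls at 1446 to 1625 CPM. That call was lost without floxed replicate 1 (-0.28), floxed replicate 2 (-0.30) or Cre replicate 2 (-0.25), and under upper-quartile scaling (-0.18) and library size alone (-0.16). Myoz2, for the calcineurin-binding protein calsarcin 1, had a log2 fold change of 0.27 and was not called, although all cKO hearts were above all controls. Without cKO replicate 1 (0.29) or Cre replicate 2 (0.38) and with the offset (0.39) it was called higher, and likewise under upper-quartile scaling, library size alone, the filter at a mean of 1 CPM and DESeq2. Myot, for myotilin, had a log2 fold change of -0.15 with an SE of 0.48, since Cre replicate 1 (7.71 CPM) and cKO replicate 4 (4.91 CPM) lay far below the other hearts (15.7 to 20.7 CPM). Synpo2l, an actin-associated protein, had a log2 fold change of -0.19 and was not called. The related immunoglobulin-domain genes Palld, Mypn and Myot, which all encode actin- and alpha-actinin-binding proteins, thus had log2 fold changes of -2.28, -0.92 and -0.15.

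Of the 6 LIM-domain genes 3 fell, 1 rose and 2 were not called. Pdlim3 (ENSMUSG00000031636, chr8:45885461-45919548, plus strand), also known as ALP, encodes a PDZ and LIM protein that binds alpha-actinin. Pdlim3 stood at 20.9, 30.7, 23.2 and 37.3 CPM in cKO replicates 1 to 4, 12.6 and 16.1 CPM in floxed replicates 1 and 2, and 16.6 and 10.7 CPM in Cre replicates 1 and 2. All cKO hearts were above all controls, although its level was among the lowest of the members. Pdlim3 was 2.00-fold higher in cKO hearts, at 28.0 ± 7.47 CPM (SD, n = 4) against 14.0 ± 2.84 CPM over the 4 controls (log2 fold change 1.00, SE 0.21, Benjamini-Hochberg adjusted p = 0.00349 by edgeR's quasi-likelihood test). It was the only member of the 8 that rose to keep its call in each of the alternatives, and its log2 fold change with the offset was 1.22. Pdlim5 (ENSMUSG00000028273, chr3:142239590-142395696, minus strand), also called ENH, encodes a protein of the same family. The level of Pdlim5 was 306, 257, 280.4 and 271 CPM in the 4 cKO hearts, 434 and 468 CPM in the floxed hearts, and 429.7 and 557 CPM in the Cre hearts. The cKO hearts were all below the controls, of which Cre replicate 2 was highest. Pdlim5 was 1.69-fold lower in cKO hearts, at 279 ± 20.7 CPM (SD, n = 4) against 472 ± 59.2 CPM over the 4 controls (log2 fold change -0.76, SE 0.11, Benjamini-Hochberg adjusted p = 0.000181 by edgeR's quasi-likelihood test). Nrap (ENSMUSG00000049134, chr19:56320035-56390037, minus strand) encodes a nebulin-related protein that anchors actin during myofibril assembly. Nrap stood at 403, 343, 351 and 255 CPM in cKO replicates 1 to 4, 568 and 553 CPM in floxed replicates 1 and 2, and 483 and 532 CPM in Cre replicates 1 and 2. No values overlapped, and cKO replicate 4 was lowest. Nrap was 1.58-fold lower in cKO hearts, at 338 ± 61.3 CPM (SD, n = 4) against 534 ± 36.7 CPM over the 4 controls (log2 fold change -0.66, SE 0.13, Benjamini-Hochberg adjusted p = 0.00157 by edgeR's quasi-likelihood test). Nrap overlaps Habp2, which had 1.20% of its level.

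Fhl2, a protein of LIM domains that binds titin, fell by 0.32 on the log2 scale. Its call was lost without cKO replicate 2 (-0.25), cKO replicate 3 (-0.34), floxed replicate 2 (-0.26) or Cre replicate 2 (-0.25), and under upper-quartile scaling (-0.21) and library size alone (-0.18). Csrp3, for muscle LIM protein, a partner of telethonin, had a log2 fold change of 0.15 and was called under upper-quartile scaling (0.26) and library size alone (0.27) only. Pdlim1, the third PDZ and LIM family member in the group, had a log2 fold change of 0.18, with 46.5 to 54.1 CPM in cKO hearts and 39.4 to 50.9 CPM in controls. It was not called, and it was called higher without Cre replicate 2 (0.27), under upper-quartile scaling (0.29), under library size alone (0.31) and with the offset (0.33). The PDZ and LIM family members Pdlim1, Pdlim3 and Pdlim5 thus had log2 fold changes of 0.18, 1.00 and -0.76.

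The last 5 genes link the lattice to desmin filaments and the intercalated disc or protect it from misfolding, and 2 of them fell, 2 rose and 1 was not called. Xirp1 (ENSMUSG00000079243, chr9:120013755-120023598, minus strand) encodes Xin, an actin-binding protein of the intercalated disc. The level of Xirp1 was 123, 119, 118 and 77.6 CPM in the 4 cKO hearts, 243 and 386 CPM in the floxed hearts, and 204 and 235 CPM in the Cre hearts. All cKO hearts were below all controls, cKO replicate 4 stood apart from the other cKO hearts, and floxed replicate 2 was the highest heart. Xirp1 was 2.40-fold lower in cKO hearts, at 109 ± 21.3 CPM (SD, n = 4) against 267 ± 81.0 CPM over the 4 controls (log2 fold change -1.26, SE 0.18, Benjamini-Hochberg adjusted p = 0.000333 by edgeR's quasi-likelihood test). Xirp1 overlaps Cx3cr1 on the same strand, which had 2.61% of its level. Cryab (ENSMUSG00000032060, chr9:50751325-50756636, plus strand) encodes alpha-B crystallin, a small heat shock protein that binds desmin and titin. Cryab stood at 1531, 1701, 1672 and 1129.5 CPM in cKO replicates 1 to 4, 927 and 975 CPM in floxed replicates 1 and 2, and 866 and 1076 CPM in Cre replicates 1 and 2. The groups did not overlap, but cKO replicate 4 was close to Cre replicate 2. Cryab was 1.57-fold higher in cKO hearts, at 1508 ± 263 CPM (SD, n = 4) against 961 ± 88.7 CPM over the 4 controls (log2 fold change 0.65, SE 0.14, Benjamini-Hochberg adjusted p = 0.0024 by edgeR's quasi-likelihood test). With the offset its log2 fold change was 0.10 and was not called, and it overlaps Hspb2, which had 6.04% of its level. Xirp2 (ENSMUSG00000027022, chr2:67446002-67526614, plus strand) encodes the Xin relative myomaxin. The level of Xirp2 was 285, 301, 233 and 167 CPM in the 4 cKO hearts, 356 and 322 CPM in the floxed hearts, and 296 and 425 CPM in the Cre hearts. The groups overlapped, since cKO replicate 2 was above Cre replicate 1. Xirp2 was 1.42-fold lower in cKO hearts, at 247 ± 60.2 CPM (SD, n = 4) against 349.8 ± 56.0 CPM over the 4 controls (log2 fold change -0.50, SE 0.19, Benjamini-Hochberg adjusted p = 0.0457 by edgeR's quasi-likelihood test). The call was lost without cKO replicate 3 (-0.48), cKO replicate 4 (-0.36), floxed replicate 1 (-0.47), floxed replicate 2 (-0.54) or Cre replicate 2 (-0.36), under upper-quartile scaling (-0.39), library size alone (-0.38) and no filter (-0.52), and the value was 0.01 with the offset.

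Smpx, for a small muscle protein, rose by 0.24 on the log2 scale, with cKO hearts at 188 to 212 CPM and controls at 162 to 177 CPM. The call was lost without cKO replicate 2 (0.23), cKO replicate 3 (0.21) or any of the 4 controls (0.21 to 0.27), with no filter (0.22) and with the offset (-0.01). Des, for desmin, the intermediate filament of muscle, had a log2 fold change of 0.05, and its groups overlapped at 1305 to 1498 CPM in cKO and 1228 to 1486 CPM in controls.

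**Figure D3:**
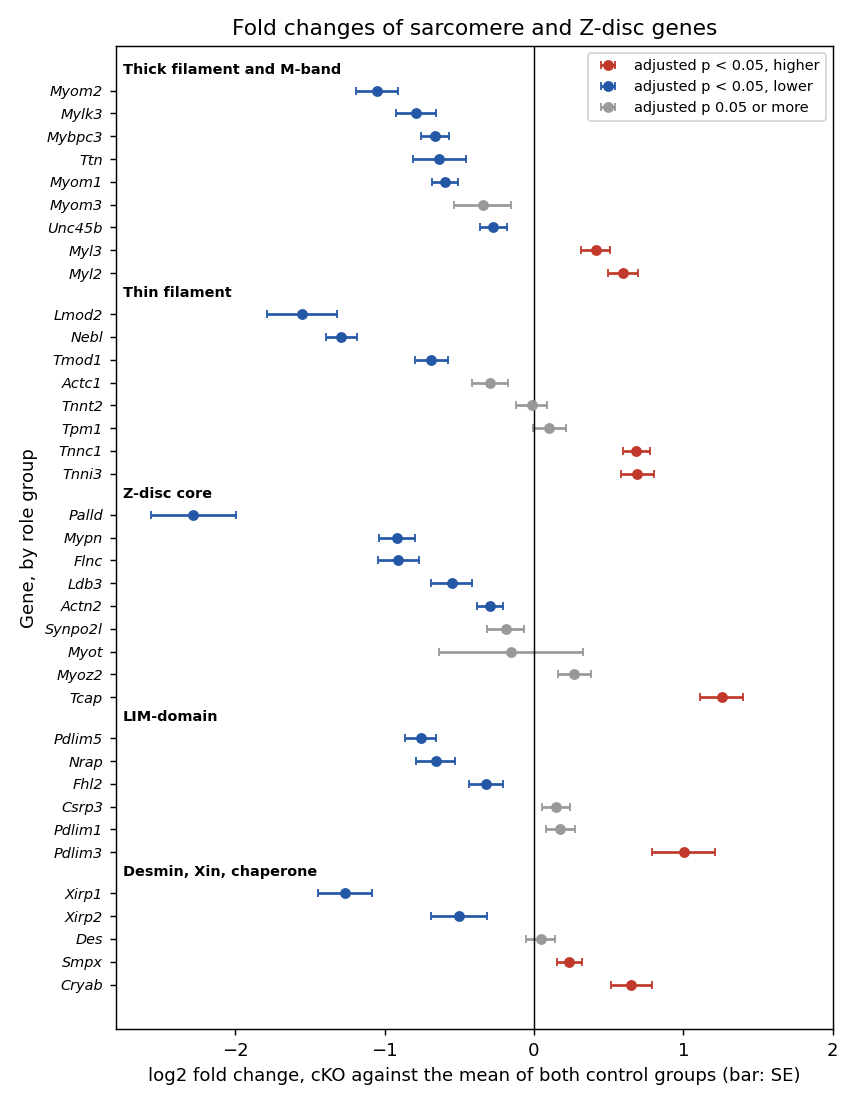
Log2 fold change (horizontal axis) of each of the 37 genes (vertical axis, by role group) in cKO hearts against the mean of both control groups. Points are estimates, bars are 1 SE, and colours show the 8 genes called higher, the 19 called lower and the 10 not called.

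The control groups were also taken separately. Against floxed hearts 17 members fell and 6 rose, beside 42.9% of all tested genes called (23.1% lower and 19.8% higher), and against Cre hearts 16 fell and 7 rose, beside 42.4% (22.8% lower and 19.6% higher). Both comparisons share the 4 cKO hearts. The number of members that rose against floxed hearts was 2 without floxed replicate 1 and 3 without floxed replicate 2, which leave 1 floxed heart, assumed to vary like the other groups. Between the control groups, Cre against floxed, 0 of the 37 members were called by edgeR, DESeq2 or limma voom, beside 0.0981% of all tested genes by edgeR (0.00654% higher and 0.0916% lower). At an unadjusted p under 0.05 edgeR gave 1 member, Tcap. Its log2 difference between Cre and floxed hearts was -0.56, and it rose by 0.98 on the log2 scale against floxed and by 1.54 against Cre hearts. On the log2 scale Lmod2 fell by 1.85 against floxed and by 1.26 against Cre hearts, Xirp1 fell by 1.52 and 1.00, and Myom2 fell by 1.24 and 0.85. The difference between the control groups was not called for any of them. For Palld (-2.33 and -2.23), Nebl (-1.26 and -1.32) and Mypn (-0.89 and -0.94) the comparisons gave nearly the same value. Unc45b, Fhl2, Xirp2, Myl3 and Smpx were called against the mean of both control groups but not against each of them: Unc45b passed against floxed (-0.31) and Myl3 against Cre hearts (0.56), and Fhl2, Xirp2 and Smpx passed against neither.

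Ratios of the transcripts of paired members within a heart do not depend on the scaling of the libraries. A set of 7 ratios of estimated counts, chosen after the values were seen, is given as a description without a test. They are not corrected for length, so they are compared only between hearts. Tnni3 to Tnnt2 was 0.703, 0.839, 0.812 and 1.17 in cKO replicates 1 to 4 and 0.520 to 0.544 in controls. Tnnc1 to Tnnt2 was 0.328 to 0.393 in cKO and 0.201 to 0.244 in controls. Neither ratio overlapped between the groups, and both were higher in cKO hearts. Tcap to Ttn was 0.856 to 1.38 in cKO and 0.218 to 0.378 in controls. Lmod2 to Tmod1, the elongator and the cap of the same filament end, was 0.673 to 1.20 in cKO and 1.21 to 2.26 in controls, and Xirp1 to Xirp2 was 0.397 to 0.505 and 0.552 to 1.20. These ratios were lower in all cKO hearts, for Lmod2 to Tmod1 by a small margin between cKO replicate 1 and Cre replicate 1. Myl3 to Myl2 (0.684 to 0.841 in cKO, 0.841 to 0.952 in controls) and Myom2 to Myom1 (0.600 to 0.973 and 0.852 to 1.29) overlapped. With the length and GC offset the log2 difference in the ratio of Tnni3 to Tnnt2 went from 0.70 to -0.07, that of Tnnc1 to Tnnt2 from 0.70 to -0.07, that of Tcap to Ttn from 1.92 to 0.81 and that of Xirp1 to Xirp2 from -0.74 to -1.27. Those of Lmod2 to Tmod1 (-0.90 and -0.91), Myl3 to Myl2 (-0.18 and -0.10) and Myom2 to Myom1 (-0.47 and -0.54) moved less.

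**Figure D4:**
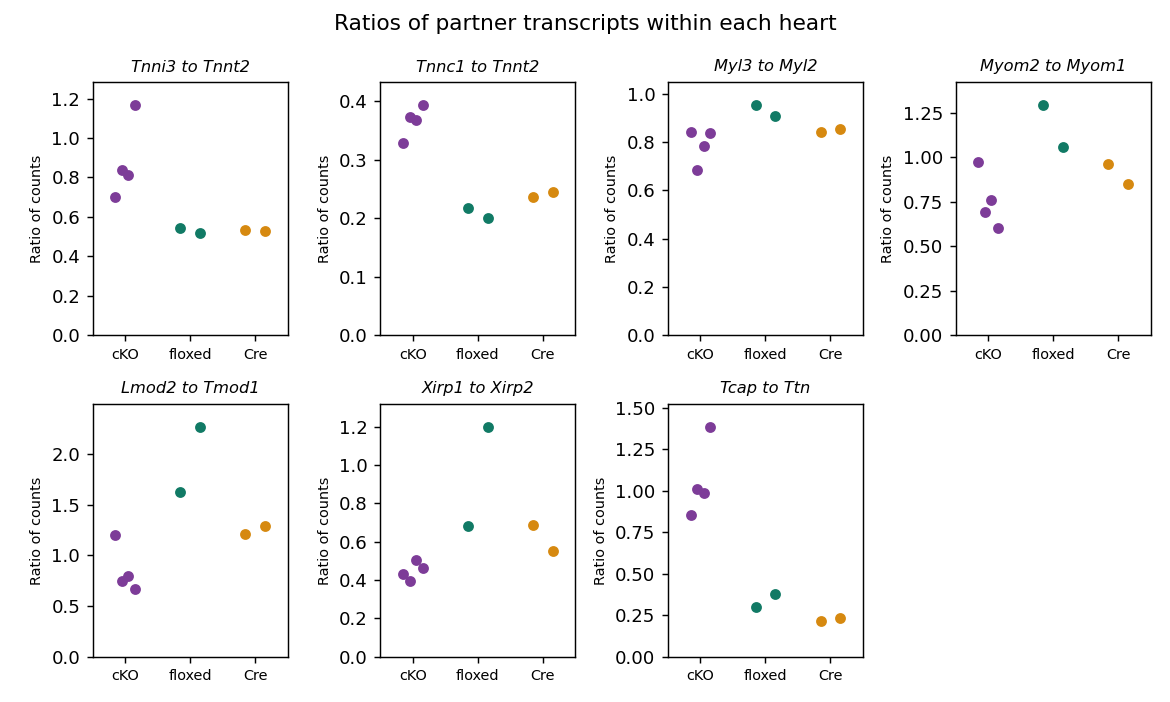
Ratios of estimated counts (vertical axes, from 0) of 7 pairs of members in each cKO, floxed and Cre heart (horizontal axes), each point a heart. The cKO hearts lie above the controls for Tnni3 to Tnnt2, Tnnc1 to Tnnt2 and Tcap to Ttn, and below them for Lmod2 to Tmod1 and Xirp1 to Xirp2.

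Fold change went with transcript length among the members. The longest annotated transcript had a median of 1032.5 bp in the 8 members that rose, 5119 bp in the 19 that fell and 2862.5 bp in the 10 not called. Across the 37 members Spearman's rho between log2 fold change and length was -0.73, and across the 13744 tested coding genes it was -0.40. Genes measured in the same libraries share their RNA quality and depth and are not independent, so these values are a description. An offset per library that removes a smooth trend with length and GC content left rho at -0.51 among the members. It ended the call of 7 of the 8 rises, all but that of Pdlim3, and of 1 of the 19 falls, that of Xirp2, and it added calls for Actc1 (lower), Myoz2 (higher) and Pdlim1 (higher). Palld (-2.05), Lmod2 (-1.57), Xirp1 (-1.26), Myom2 (-0.89), Flnc (-0.83), Mypn (-0.82) and Nebl (-0.78) kept a called fall under the offset.

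**Figure D5:**
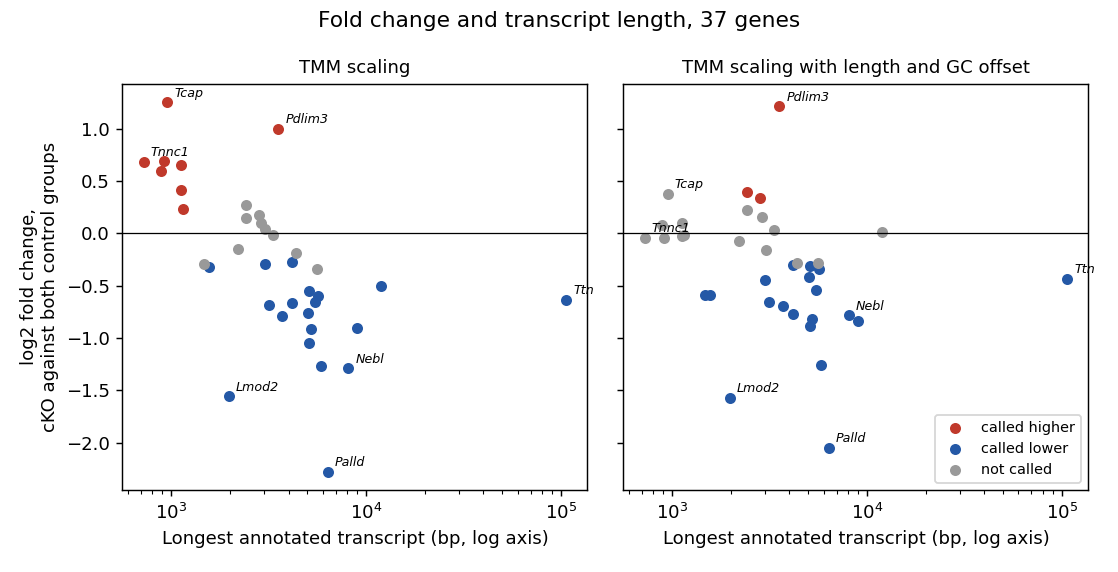
Log2 fold change of the 37 genes (vertical axis) against the length of the longest annotated transcript in bp (horizontal log axis), with TMM scaling (left) and with the length and GC offset added (right). On the left 7 of the 8 genes called higher lie at the short end of the axis, and on the right these 7 lie between -0.04 and 0.38 and are not called.

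A list of 55 other sarcomere symbols, 54 of which were matched and tested, was also chosen with earlier results of these data known. It had 19 genes higher and 22 lower in cKO hearts, 75.9% beside 52.1% of all tested genes. The 4 largest rises were those of skeletal actin Acta1 (log2 fold change 2.17, SE 0.65), the atrial light chains Myl7 (1.61) and Myl4 (1.61), and the smooth muscle light chain Myl9 (1.46). The 4 largest falls were those of the desmin-binding Cmya5 (-1.53), Filip1 (-1.53), the formin Fhod3 (-1.51) and the ubiquitin ligase Trim55 (-1.48). Acta1 varied widely, from 340 CPM in cKO replicate 4 to 1845 CPM in cKO replicate 2, and Cre replicate 2 (483 CPM) was above the former. The myosin heavy chains Myh6 (-0.21) and Myh7 (0.04, SE 0.53) were not called, and the stress-responsive Ankrd1 fell (-0.70). For Myh6 all cKO hearts lay below all controls. The value of Myh7 averages differences of opposite sign, -0.84 against floxed and 0.92 against Cre hearts. Its control groups differed by -1.76 for Cre against floxed, and none of these was called. Against each control group alone Acta1 was not called (2.53 against floxed, 1.81 against Cre), and Myl9 was called against floxed only (1.57 and 1.36). With the offset Acta1 (1.69), Myl7 (0.76) and Myl9 (0.79) were not called, while Myl4 (1.62) and all 4 largest falls were. The list then had 9 genes higher (16.7%) and 26 lower (48.1%), beside 22.6% and 23.3% of all tested genes.

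Lists of markers of other cells were read beside all tested genes, of which 25.6% rose and 26.5% fell. Among 10 atrial genes 8 rose, and their sum was 5858 to 11937 CPM in cKO hearts and 2695 to 4536 CPM in controls. This list shares Myl7, Myl4 and Mybphl with the other sarcomere genes and Nppa with the list that defines cardiomyocytes, so these lists are not separate. Of 10 endothelial genes 7 rose and 1 fell (sums of 1830 to 2491 and 1205 to 1511 CPM), and of 10 macrophage genes 7 rose (348 to 448 and 224 to 282 CPM). Of 10 fibroblast genes 3 rose, near the share of all tested genes, with sums of 1236 to 1807 and 934 to 1333 CPM. Only cKO replicate 4 (1807 CPM) lay above the controls. The sums of cKO replicates 1 to 3 (1236 to 1255 CPM) lay within the control range. None of 10 smooth muscle genes was called. Des, which cardiomyocytes also express, made up most of their sum, and the other 9 summed to 674 to 1094 CPM in cKO hearts and 740.5 to 836 CPM in controls. The part of these cells in the members' values was not tested.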

How the data were processed

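RNA sequencing measured transcripts in 8 mouse hearts of 3 genotype groups, assigned by the genotype labels. The authors deposited a table of estimated counts per gene, from which 0 columns were left out. Of the values above 0 in a library, 72.0% to 76.3% were whole within a tolerance of 1e-06. Reads were handled with STAR 2.5.1b and DESeq2 and the builds mm10 and GRCm38, per the submitters' processing notes. The counting program, annotation, strand setting and role of DESeq2 are not stated there or in the labels.

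Estimated counts were rounded before testing, since the design had been written for counts. Symbols, positions and transcript lengths came from GENCODE M21 (GRCm38), and promoters from RefSeq (GRCm38.p6). A fit of all 8 libraries had 3 group means and 5 residual degrees of freedom, in edgeR 4.0.16 (R 4.3.3), with TMM scaling, filterByExpr and robust dispersion. Calls are at a Benjamini-Hochberg adjusted p under 0.05 over 15289 genes by the quasi-likelihood test. Contrasts were cKO against the average of both control groups, against each control group, and Cre against floxed. Standard errors were derived from the test statistic. A p-value here measures spread between individual hearts.

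The members and lists were chosen with earlier results of these data known. All 37 members are named, and in each of 5 role groups the 3 called members with the largest absolute log2 fold change are given by heart. Of the other sarcomere genes, the 4 largest called rises and falls, Myh6, Myh7, Acta1 and Ankrd1 are named, and 1 other gene that the rule names is not reported here. Overlaps over 1% of a member's level are given with the member.

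Alternatives were median-ratio, upper-quartile and no scaling beyond library size, DESeq2 1.42.0, limma 3.58.1 voom, no low-count filter, genes with a mean of at least 1 CPM, dispersion without robust estimation, a block for the replicate number, a length and GC offset (mgcv 1.9.3, 15216 genes with values), separate fits of the groups compared, calls with an absolute log2 fold change of at least 1, and leaving out each library. Of these procedures, only the edgeR test of cKO against the average of both control groups, with TMM scaling, was run on simulated data. Those counts were drawn from its own fit and held no trend with length. The alternatives were not run on simulated data.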

Additional observations from a re-analysis of the deposited data

Results flagged for a closer look

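In 4 of the 37 members the cKO group had a heart far from the other 3, with a gap to its nearest neighbour that exceeded Dixon's critical share of the group's whole range for 4 samples. Chance gives this in about 1 of 20 groups. Myom3 was low in cKO replicate 4 at 2.21 CPM, Myot was low in the same heart at 4.91 CPM, and so was Xirp1 at 77.6 CPM. Tcap was high in cKO replicate 2 at 3411.5 CPM. Xirp1 and Tcap remained called without these hearts, and Myom3 and Myot were not called with or without them.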

How the results depend on the processing

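Apart from the minimum fold change, 16 of the 27 called members kept their call in every alternative, 15 that fell and 1 that rose (Pdlim3), and 6 of the 10 members not called stayed so. Among the falls kept, that of Ldb3 barely passed with the offset (adjusted p = 0.0496 by edgeR's quasi-likelihood test). That of Ttn came as close to the threshold in another alternative. Under the length and GC offset the count of members that rose was 3 (2 against floxed), and that of other sarcomere genes 9. The offset also reversed the sign of Myl3 (-0.020), Tnni3 (-0.041, and -0.10 against floxed), Tnnc1 (-0.039, and -0.079 against Cre), Smpx (-0.011) and Xirp2 (0.015), and of the log2 ratios of Tnni3 to Tnnt2 (-0.073) and Tnnc1 to Tnnt2 (-0.072). None of these reversed values was called, and beyond what the offset itself removes the cause was not tested. A minimum absolute log2 fold change of 1 left 2 members higher and 5 lower (0 and 5 against floxed, 2 and 5 against Cre), 10 and 11 other sarcomere genes, and 1152 and 922 of all genes (1004 and 952 against floxed, 969 and 855 against Cre).

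For Cre against floxed, edgeR called 1 of all genes higher and 14 lower. The number higher was 3 with no filter, 0 with a filter at a mean of 1 CPM, 11 in the fit of only these groups, 2 with voom and 8 with DESeq2. The number lower was 9 with upper-quartile scaling, 28 with no filter, 22 in the fit of only these groups and 54 with DESeq2. The cause was not tested. The labels do not say that a replicate number marks a shared litter or day, so the numbers were not taken to pair the hearts. Deviations of same-numbered hearts from their group means correlated between -0.11 and 0.13. In a group of 2 hearts these deviations mirror each other, so the correlations cannot decide whether hearts were paired. The library names number the floxed hearts differently, and that numbering was not checked. Only the cKO group has replicates 3 and 4, so the replicate block fits those hearts exactly. Its cKO contrasts therefore rest on cKO replicates 1 and 2, with fewer residual degrees of freedom. With the block 7 members rose and 15 fell, beside 3007 and 3365 of all genes. Unc45b (-0.19), Actn2 (-0.30), Fhl2 (-0.36), Xirp2 (-0.25) and Smpx (0.21) were no longer called. The smaller number of hearts and the block itself cannot be told apart in these losses. In that fit 10 other sarcomere genes rose, and Cre against floxed had 18 genes higher and 66 lower.

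Leaving out each library in turn gave 7 to 9 members higher and 15 to 20 lower (2 to 7 and 13 to 18 against floxed, 5 to 7 and 12 to 17 against Cre, 0 for Cre against floxed), and 13 to 18 other sarcomere genes higher and 20 to 23 lower. Of all genes it gave 3115 to 3912 higher and 3464 to 4302 lower, 1381 to 3219 and 2199 to 3815 against floxed, 1665 to 3077 and 2278 to 3854 against Cre, and 0 to 3 and 6 to 16 for Cre against floxed. With 2 hearts in each control group, the calls of Smpx, Unc45b and Actn2 were lost when some hearts were left out, while their fold changes moved little (0.21 to 0.27, -0.24 to -0.29 and -0.25 to -0.30 where the call was lost). Fhl2 and Xirp2 lost their calls as well, and their values moved more. They stood at -0.25 to -0.34 and -0.36 to -0.54 where the call was lost, beside -0.32 and -0.50 with all hearts. The effect of depth was not tested.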
